A study of Mus musculus with 3 samples.

Results

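The interferon sensing and antiviral response genes of F9 cells were taken as a list of 57 mouse genes, and every probe set whose platform annotation gives exactly 1 of their symbols was read on all arrays of the study. Of these genes, 54 were measured, by 91 probe sets, out of 18193 genes named on the array. The list holds 2 interferon ligands, 27 upstream genes (receptors, sensors, adaptors, kinases and transcription factors) and 28 interferon-stimulated effectors. The other 3 genes, Oas1g, Isg15 and Ifi44, are all effectors and were not analysed here, because no probe set carried their symbol alone. Tmem173 and Mb21d1 were found through the gene identifier under their current symbols, Sting1 and Cgas.

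The study measured undifferentiated F9 cells, an established line of mouse embryonal carcinoma, which are the malignant stem cells of a teratocarcinoma and resemble the early embryo's pluripotent cells. RNA extracted with Trizol from cells grown on 0.2% gelatin in medium with 10% fetal calf serum, to roughly 80% confluence, was put on Affymetrix Mouse Genome 430 2.0 arrays. There are 3 replicate arrays of a single group, with no added agent, no altered genotype named in the labels and no differentiated or interferon-treated comparison. The labels do not say whether the replicates came from separate cultures, so the p-values below measure only the spread between these arrays, which may be technical, and the number of arrays limits the precision.

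In most cells, receptors of the innate immune system recognise viral nucleic acid. Ddx58 (RIG-I) and Ifih1 (MDA5) bind RNA in the cytoplasm and act through Mavs, Cgas binds DNA and acts through Sting1, and Toll-like receptors act through Myd88 or Ticam1. The kinases Tbk1 and Ikbke then activate Irf3 and Irf7, which switch on interferon beta. Secreted interferon binds its receptor, and a complex that holds Stat2 and Irf9 turns on the effector genes through a DNA motif called the interferon-stimulated response element. Pluripotent cells are known to make and answer interferon weakly, and some of them hold a subset of effectors at a steady level without it.

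The values are the authors' signal intensities, one per probe set, scaled on each array so that their mean after trimming 2% at each end was 250.002. Background was taken from 126 probe sets of 112 genes not thought to be used in these cells, namely olfactory, vomeronasal and bitter taste receptors and hair keratin-associated proteins. Their 95th percentile set a threshold of 44.6, 46.1 and 42.0 on replicates 1, 2 and 3. A gene was called above background when the mean of log2(signal / threshold) exceeded 0 at a Benjamini-Hochberg adjusted p under 0.05, by a one-sided limma test over all 45101 probe sets, at the probe set of the gene with the highest mean signal. Probe sets bind with different strength, so the signals of different genes were not compared. Of the embryonal carcinoma markers, 9 of 10 were called, including Pou5f1, Sox2 and Nanog, and Fut4 was not (15.1 ± 11.4, SD, n = 3).

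Of the 54 measured genes, 22 were called above background (40.7%), against 9253 of 18081 named genes outside the background families (51.2%). The receptors, sensors and transducers were called in 13 of 27 cases (48.1%) and the effectors in 9 of 25 (36%). Neither ligand was called. Counted without a test, 24 of the 54 genes lay over the threshold on all 3 arrays, against 53.9% of all named genes. The upstream share lay near the share of all named genes and the effector share below it, and no test between the classes was made. A gene with several probe sets was called at its brightest one. A single probe set measured 11 of the 27 upstream genes and 18 of the 25 effectors, and its bearing on the shares was not tested. In a bulk sample, fewer cells using a gene and less RNA per cell cannot be told apart.

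**Figure D1:**
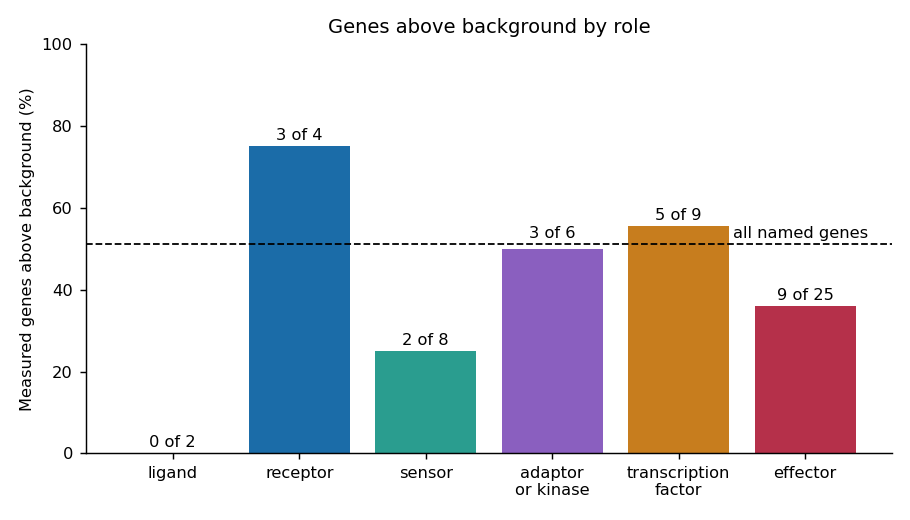
The bars give, for each role, the percentage of measured genes called above background in F9 cells (limma, 3 arrays), and the line marks the 51.2% of all named genes that were called. Receptors reached 75%, transcription factors 55.6%, adaptors and kinases 50%, effectors 36% and sensors 25%, and no ligand was called.

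As a description of distance from background, which also depends on how strongly each probe set binds, the median of log2 signal over threshold was 0.36 for the upstream genes and −0.34 for the effectors, against 0.73 for all named genes. Signals more than 4 times the threshold were found for 7 upstream genes and 6 effectors, together 13 of 54, against 38.4% of all named genes. A mean more than 4 times under the threshold was found for 11 of the 54, against 17.8% of all named genes.

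Among the ligands, Ifnb1, which encodes interferon beta, gave signals of 28.1, 56.8 and 44.3 on replicates 1, 2 and 3. Replicates 2 and 3 lay over their thresholds and replicate 1 under it, and the mean of log2 signal over threshold was −0.10. Ifng, which encodes the interferon of T cells and natural killer cells, gave 3.89 ± 4.38 (SD, n = 3), far under the threshold on every array.

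Both chains of the type I interferon receptor were called. Ifnar1 gave 193, 221 and 228 (214 ± 18.6, SD, n = 3), a log2 of 2.27 over the threshold with an adjusted p of 0.000539. Ifnar2, the chain that binds interferon most tightly, gave 114, 91.6 and 84.8, a log2 of 1.12 with an adjusted p of 0.00477. All of these signals lay clear of the thresholds. The other probe sets of both genes were not called, at a log2 of −0.59 for Ifnar1 and of −1.31 and −1.82 for Ifnar2.

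Of the type II receptor, 1 of the 2 chains was called. Ifngr1, its ligand-binding chain, gave 105, 97.4 and 134, a log2 of 1.33 with an adjusted p of 0.00553. Ifngr2, the chain needed for signalling, gave 7.49, 30.0 and 29.4 at the higher of its 2 probe sets. There it lay under the threshold on all 3 arrays, at a log2 of −1.24. The other probe set gave 8.64, 6.67 and 48.6, over the threshold on replicate 3 alone, at a log2 of −1.65. A probe set under the threshold can also be one that binds poorly, which was not tested.

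Of 8 sensors, 2 were called. Ddx58, the cytoplasmic RNA sensor RIG-I, gave 438, 428 and 341 (402 ± 53.0, SD, n = 3), a log2 of 3.18 with an adjusted p of 0.000222. Its relative Ifih1, which prefers long double-stranded RNA, gave 15.4 ± 5.52 and lay under the threshold on all arrays. Dhx58, the third helicase of that family and a regulator of the other two, gave 29.3, 41.9 and 34.3, also under the threshold throughout. Within the family, then, a call was made for Ddx58 alone.

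Mb21d1, the cytoplasmic DNA sensor cGAS, gave 44.4, 57.2 and 60.9, with replicate 1 just under its threshold. It was not called, at a log2 of 0.28 and an adjusted p of 0.222. Its other probe set gave 91.3, 31.2 and 9.60, over the threshold on replicate 1 alone. That probe set was not called either, at a log2 of −0.55.

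Among the Toll-like receptors, Tlr2, which recognises bacterial lipoproteins, gave 319, 318 and 310 (316 ± 5.03, SD, n = 3), a log2 of 2.84 with an adjusted p of 0.00022. The arrays differed little for this gene. Tlr9, which recognises unmethylated DNA in endosomes, gave 39.4, 68.6 and 67.0, with replicate 1 under the threshold, and was not called (adjusted p 0.269). Tlr4, the lipopolysaccharide receptor, gave 23.5, 41.9 and 20.9, and Tlr3, which recognises double-stranded RNA in endosomes, gave 9.83 ± 9.84. Both lay under the threshold on all arrays.

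Toll-like receptors are also typical of white blood cells, so leukocyte markers were read beside them. Of 9 measured markers 3 were called, Laptm5 (1315 ± 125), Csf1r (86.1 ± 7.27) and Cd68 (79.5 ± 5.38). The pan-leukocyte gene Ptprc gave 10.6 ± 6.54 and lay under the threshold on all arrays, as did Tyrobp, Itgam, Cd14 and Cd3e, and Adgre1 lay over it on replicate 3 alone. The summed signal of the 9 was 1571, 1443 and 1727 on the 3 arrays, most of it from Laptm5 (1326, 1185 and 1434). The part of this sum in the sensor results was not tested.

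Of 6 adaptors and kinases, 3 were called. Mavs, the mitochondrial adaptor of the RNA helicases, gave 199.96, 215 and 289, a log2 of 2.39 with an adjusted p of 0.00123. Myd88, the adaptor of most Toll-like receptors, gave 155, 115 and 118, a log2 of 1.54 with an adjusted p of 0.00242. Tbk1, the kinase that phosphorylates Irf3, gave 877, 859 and 999 (911 ± 76.3, SD, n = 3), a log2 of 4.36 with an adjusted p of 0.000151. That probe set can read other transcripts by its suffix, and the other probe set of Tbk1 gave 266 ± 29.3, a log2 of 2.58, and was called too. All 3 genes lay over the threshold on every array.

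The other 3 members of this group were not called. Tmem173, the adaptor STING downstream of cGAS, gave 77.5, 42.9 and 46.0, with replicate 1 well over its threshold, replicate 2 under it and replicate 3 slightly over it (adjusted p 0.388). Ikbke, the relative of Tbk1, gave 6.68 ± 1.24. Ticam1, the adaptor of Tlr3 also called TRIF, gave 10.3 ± 12.2. The last 2 lay under the threshold on all arrays.

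Of 9 transcription factors, 5 were called. Irf3, the factor that Tbk1 activates, gave 545, 553 and 470 (523 ± 45.8, SD, n = 3), a log2 of 3.56 with an adjusted p of 0.000153. Irf1, which can act without interferon signalling, gave 230.0, 218 and 198, a log2 of 2.28 with an adjusted p of 0.000376. At these probe sets both genes lay far over the threshold on every array. The Irf3 probe set is one whose suffix marks sequence shared with other transcripts. Of its other 3 probe sets 1 was called, at a log2 of 1.88, and 2 were not, at −0.32 and −0.61.

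The other called factors lay nearer to it. Irf5, an activator of inflammatory cytokine genes, gave 91.7, 112 and 71.3, a log2 of 1.03 with an adjusted p of 0.00854, which became 0.0528 without replicate 1. Irf9, the DNA-binding part of the complex formed after interferon, gave 87.0, 65.3 and 55.9, a log2 of 0.63 with an adjusted p of 0.0414. Stat2, its partner, gave 66.7, 61.4 and 72.2, a log2 of 0.59 with an adjusted p of 0.0264. The calls for Irf9 and Stat2 were lost when any 1 array was left out, with adjusted p from 0.0871 to 0.146 for Irf9 and from 0.0667 to 0.119 for Stat2.

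Irf7, which amplifies interferon production and is itself induced by interferon, gave 20.1, 62.2 and 16.9, so that replicate 2 alone lay over its threshold, and was not called. Irf2, a repressor that competes with Irf1, gave 7.90 ± 5.49 (SD, n = 3). The lymphoid and myeloid factors Irf4 and Irf8 gave 9.59 ± 6.95 and 17.3 ± 3.52. These 3 lay under the threshold on all arrays.

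**Figure D2:**
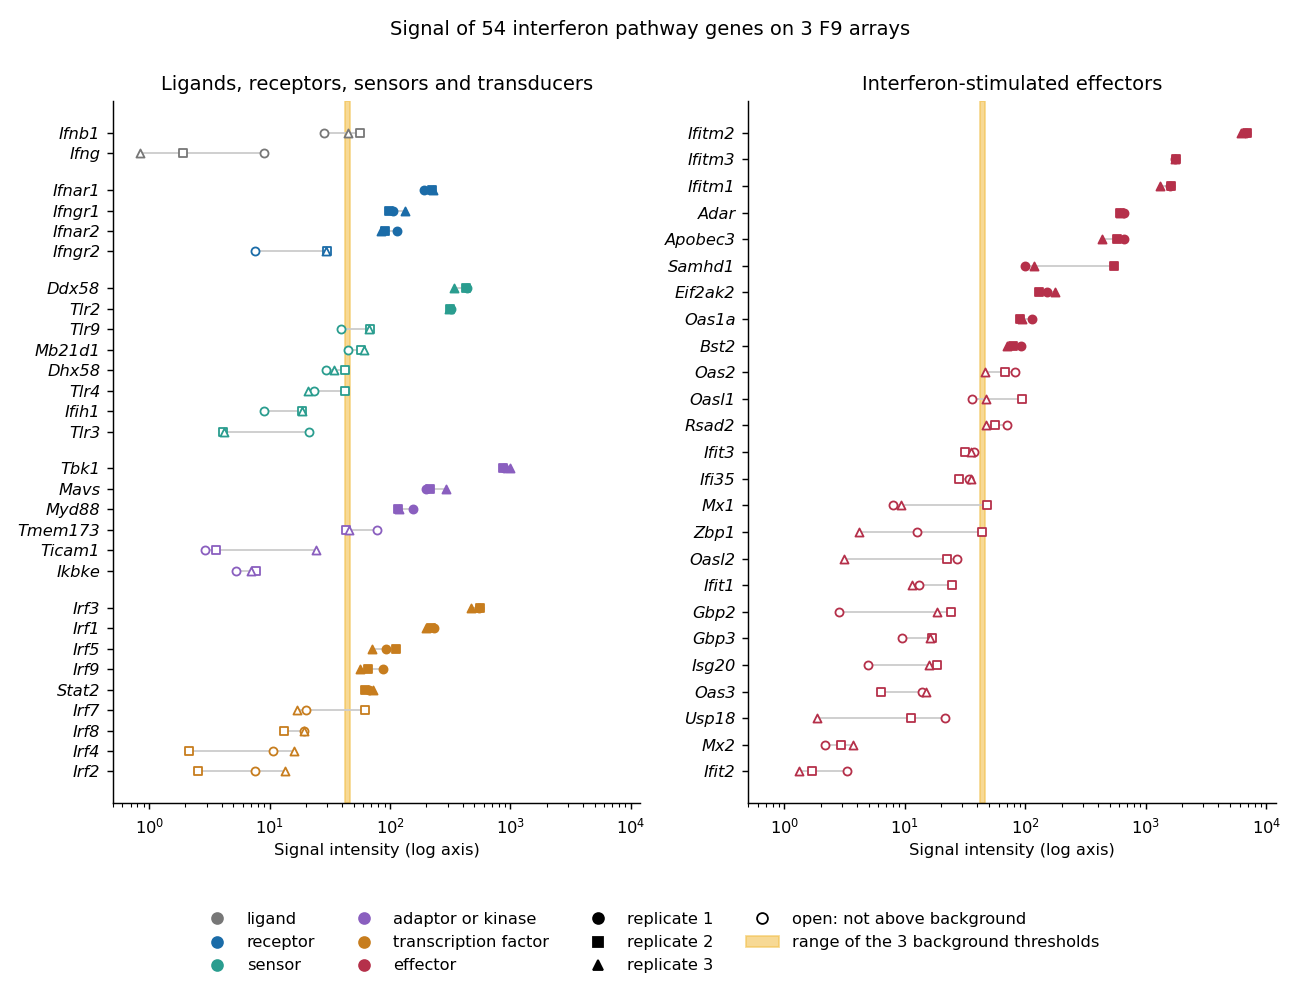
Each symbol is the signal intensity of 1 array (log axis) for 1 of the 54 measured genes, grouped by role, with a shape for each replicate, open where the gene was not called, and a band over the range of the 3 background thresholds. The Ifitm genes lie far to the right, with mean signals of 6636, 1756 and 1508 for Ifitm2, Ifitm3 and Ifitm1, and Ifit2 lies farthest to the left among the effectors, at a mean of 2.11.

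Among the effectors, the Ifitm genes were all called. They encode small membrane proteins that block virus entry and are also known from germ cells and early embryos. Ifitm2 gave 6792, 6888 and 6229 (6636 ± 356, SD, n = 3), a log2 of 7.23 over the threshold with an adjusted p of 0.000114. Ifitm3 gave 1734, 1777 and 1757 (1756 ± 21.4), a log2 of 5.31 with an adjusted p of 0.000114. Ifitm1 gave 1598, 1622 and 1305 (1508 ± 176), a log2 of 5.09 with an adjusted p of 0.000116. Each has 1 probe set, and because the genes are close relatives, whether their probe sets read one another was not tested.

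Adar, Apobec3 and Samhd1 were called as well. Adar, which edits adenosine to inosine in double-stranded RNA, gave 661, 611 and 606 (626 ± 30.7, SD, n = 3), a log2 of 3.82 with an adjusted p of 0.000143. Apobec3, a cytidine deaminase that restricts retroviruses, gave 661, 574 and 436, a log2 of 3.63 with an adjusted p of 0.000275. Both lay far over the threshold on all arrays. Samhd1, which depletes the nucleotides that reverse transcription needs, gave 100.2, 540.5 and 118 at its brightest probe set, a log2 of 2.07 with an adjusted p of 0.0454. Replicate 2 stood far above the others there, and the call at this probe set was lost without replicate 1 (adjusted p 0.0643) and without replicate 3 (0.124). Of its 4 other probe sets, 3 were called, at log2 values of 2.39, 2.22 and 1.79.

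The remaining called effectors were Eif2ak2, Oas1a and Bst2. Eif2ak2, the kinase PKR that stops translation when it binds double-stranded RNA, gave 150.2, 131 and 178, a log2 of 1.78 with an adjusted p of 0.0021. Oas1a, an oligoadenylate synthetase that activates RNase L, gave 114, 90.04 and 93.2, a log2 of 1.16 with an adjusted p of 0.0042. Bst2, or tetherin, which holds budding virus on the cell surface, gave 91.2, 79.2 and 70.7, a log2 of 0.85 with an adjusted p of 0.00797. All 3 lay over the threshold on every array, but the call for Bst2 was lost without replicate 1 (adjusted p 0.0535).

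The other 16 measured effectors were not called, and 5 of them lay near the threshold or above it. Oas2, another synthetase of the family, gave 82.3, 67.3 and 46.3, over the threshold on every array, with an adjusted p of 0.092. Rsad2, or viperin, gave 70.8, 56.1 and 47.6, also over it on every array, with an adjusted p of 0.115. Oasl1, a synthetase relative without that activity, gave 36.1, 93.0 and 47.2, with replicate 1 under the threshold. Ifit3, one of the genes most strongly induced by interferon in many cells, gave 37.8, 31.8 and 35.5, under it throughout. The same held for Ifi35, which gave 34.0, 28.0 and 35.6.

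The remaining 11 effectors had means from 2.11 (Ifit2) to 21.8 (Mx1). They were Oas3, Oasl2, Mx1, Mx2, Isg20, Ifit1, Ifit2, Usp18, Gbp2, Gbp3 and Zbp1. They include the classical reporters of an interferon response, such as the Ifit genes, which bind viral RNA, the Mx genes, which trap viral nucleocapsids, and Usp18, which switches the receptor off again. At the brightest probe set of each gene, the only signal of this group over its threshold on any array was that of Mx1 on replicate 2, where the 3 arrays gave 7.92, 48.3 and 9.36. The second probe set of Zbp1 gave 10.4, 5.49 and 44.3, over the threshold on replicate 3. At the brightest probe set, 12 of the 25 measured effectors lay under the threshold on every array.

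The assignment of genes to classes has several reasonable forms, because sensors and factors such as Irf7 are themselves induced by interferon. With the inducible upstream genes counted among the effectors, 9 of 19 upstream genes and 13 of 33 effectors were called. With Eif2ak2 and Zbp1 counted as sensors, the counts were 14 of 29 and 8 of 23. The share of upstream genes was the higher one in each form, and both shares lay under the 51.2% of all named genes. The forms share most of their genes, and no test between the classes was made.

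Calls also differed between probe sets of the same gene. Of all 34819 probe sets with 1 symbol outside the background families, 15772 were called (45.3%). Of the 23 members with several probe sets, 5 were called at all of them (Irf5, Mavs, Tbk1, Eif2ak2 and Adar) and 12 at none. The other 6, Ifnar1, Ifnar2, Irf3, Stat2, Ddx58 and Samhd1, had some called and some uncalled probe sets. Among all genes with several probe sets, 40% (3598 of 8998) were mixed in this way. How many of those genes were called at all or at none of their probe sets was not counted. The member counts of 5 and 12 are therefore a description only. The suffix of a probe set marks how specifically it matches 1 transcript. With the probe set preferred by its suffix, Irf3 alone among the called members turned direction, to a log2 of −0.32 in place of 3.56. The uncalled probe sets of the other mixed genes lay under the threshold too. They gave −0.59 for Ifnar1, −1.31 and −1.82 for Ifnar2, −1.36 for Stat2, −2.04 for Ddx58 and −3.07 for Samhd1.

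**Figure D3:**
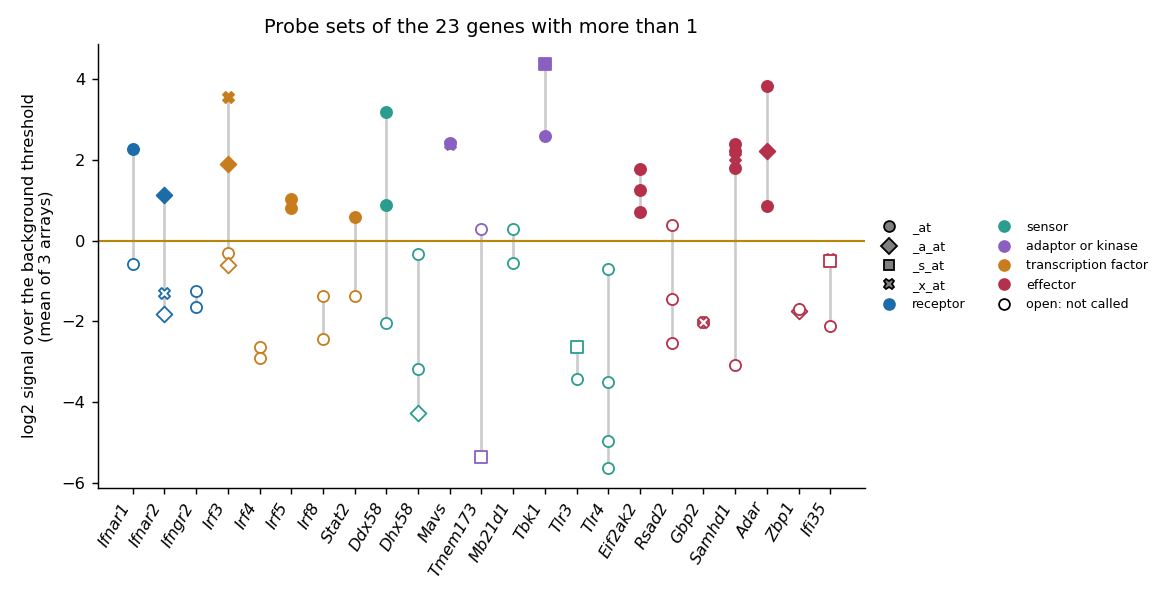
Each point is the mean log2 signal over threshold of 1 probe set, for the 23 genes with several probe sets, with calls marked. Samhd1 has 4 called probe sets and 1 at −3.07, and Tbk1, Mavs, Irf5, Eif2ak2 and Adar have calls at all of theirs.

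The spread between the arrays was of the same order as that of other genes. The median SD of log2 signal over the 3 arrays was 0.19 for the 22 called members, against 0.14 for all called genes. For the uncalled members it was 0.64, against 0.72 for all uncalled genes. Called members such as Tlr2 and Ifitm3 were close on all arrays, and among the called genes a single high array was seen for Samhd1. Among the uncalled ones, replicate 2 stood high for genes such as Irf7, Mx1, Oasl1 and Zbp1. Replicate 1 did so for Tlr3 and Ifng, and replicate 3 for Ticam1.

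Other genes of the pathway were read from lists that hold none of the 57. These lists were chosen with earlier results of these data known, so their counts are a description. Of 14 measured kinases and signal factors, 12 were called, against 51.2% of all named genes: Jak1, Jak2, Tyk2, Traf6, Trim25, Riok3, Irak1, Rela, Ikbkb, Ikbkg, Tank and Azi2. Jak1 (515 ± 33.0, SD, n = 3) and Tyk2 (175 ± 10.6) are the kinases bound to the type I receptor, and Trim25 (1746 ± 64.5) is a ubiquitin ligase that can activate Ddx58. Tlr7 and Tlr8, endosomal receptors for single-stranded RNA, were not called. Traf3, Irak4, Nfkb1 and Chuk had no probe set with their symbol alone and were not analysed here.

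Of 12 genes that restrain the pathway, 10 were called, against 51.2% of all named genes: Socs3, Ptpn1, Ptpn2, Ptpn6, Pias1, Pias4, Trim28, Cyld, Otud5 and Rnf125. Ptpn2, a phosphatase that acts on Jak1, gave 2088 ± 219. Trim28, which also silences endogenous retroviruses in pluripotent cells, gave 8480 ± 503. Socs1, a feedback inhibitor induced by interferon, gave 41.1, 13.2 and 4.40, under the threshold on all arrays, and Tnfaip3 gave 52.8 ± 7.98 and was not called. Of the genes that clear nucleic acid, all 7 measured were called, against the same 51.2%: Rnaseh2a, Rnaseh2b, Rnaseh2c, Dnase2a, Dicer1, Ago2 and Skiv2l. Dicer1 (367 ± 17.8) and Ago2 (1093 ± 59.3) belong to the RNA interference machinery.

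A further 37 measured interferon-stimulated genes gave 8 calls, and their median log2 over threshold was −0.66. Those called were Parp12, Dtx3l, Trim21, Xaf1, Pml, Tor3a, B2m and Phf11d. Pml, the scaffold of nuclear bodies, gave 882 ± 119 (SD, n = 3), and B2m, the light chain of class I molecules, gave 364 ± 23.6. The 29 uncalled genes began, in the order of the list, with Ifi27, Ifi203, Ifi204 and Parp9. Against the 51.2% of all named genes, a smaller part of these genes was called, as for the effectors above. Because both lists were chosen with earlier results of these data known, the further list is not an independent check on the effectors.

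The promoters of the genes were read for the motifs through which interferons act. RefSeq promoters of GRCm38.p6, from 250 bases before to 50 bases after a transcript start, were on hand for 49 of the 57 genes. None was on hand for Tlr4, Dhx58, Tmem173, Oas2, Mx1, Mx2, Usp18 and Zbp1, and all of these were uncalled. The interferon-stimulated response element was searched as GAAANNGAAA and the gamma-activated site, through which interferon gamma acts, as TTCNNNGAA, both on either strand. A gene counted once if any of its promoters held the motif, and matches of the 2 motifs shared bases in 3 members. Stretches around the response element are given for the 3 called and the 3 uncalled effectors that come first in the list and hold it, to show that it occurs in both. They run 5′ to 3′ on the gene's strand with the matches in capitals, and those written TTTC are the same motif on the opposite strand.

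Eif2ak2 (called; chr17:78882535-78882564, minus strand): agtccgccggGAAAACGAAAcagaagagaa
Oas1a (called; chr5:120907526-120907565, minus strand): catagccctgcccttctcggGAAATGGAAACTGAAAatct
Ifitm2 (called; chr7:140955978-140956027, minus strand): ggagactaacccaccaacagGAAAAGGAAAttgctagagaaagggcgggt
Oas3 (not called; chr5:120777705-120777754, minus strand): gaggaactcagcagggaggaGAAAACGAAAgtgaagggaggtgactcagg
Ifit1 (not called; chr19:34640765-34640833, plus strand): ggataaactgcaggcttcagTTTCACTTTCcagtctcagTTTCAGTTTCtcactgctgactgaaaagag
Ifit3 (not called; chr19:34583353-34583436, plus strand): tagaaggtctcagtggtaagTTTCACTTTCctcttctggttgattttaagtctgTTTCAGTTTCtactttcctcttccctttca

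The match of Eif2ak2 lies after the transcript start and the others lie before it. Oas1a holds 2 overlapping matches, and Ifit1 and Ifit3 hold 2 separate ones each. A match is a description of the letters and not a measured binding site.

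The response element was found in 14 of 23 effectors (60.9%) and in 5 of 24 upstream genes (20.8%), against 3.99% of all 27025 genes of the promoter table. The effectors were Eif2ak2, Oas1a, Oas1g, Oas3, Isg15, Ifit1, Ifit3, Ifitm2, Ifitm3, Rsad2, Bst2, Gbp2, Gbp3 and Apobec3, and the upstream genes were Irf2, Stat2, Ddx58, Ifih1 and Myd88. Among the effectors with a promoter and a signal, it was held by 6 of 9 called and 6 of 11 uncalled genes. The measured effectors without a promoter, Oas2, Mx1, Mx2, Usp18 and Zbp1, were all uncalled, so this split leaves out uncalled genes only. The gamma-activated site was found in 9 of 23 effectors and 6 of 24 upstream genes, against 9.55% of all genes.

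The CpG content of the same windows was higher in the upstream genes than in the effectors, given as a description with no test. The median ratio of observed to expected CpG, taken at the most CpG-rich promoter of a gene, was 0.69 for the upstream genes and 0.27 for the effectors, against 0.41 for all genes. A ratio over 0.6 was found in 15 of 24 upstream genes and in 3 of 23 effectors, against 38.3% of all genes. Those 3 effectors were Eif2ak2, Samhd1 and Adar, and all of them were called. Over both classes and the ligands, 13 of 22 called and 5 of 24 uncalled genes had such a promoter. The same split was not made for all named genes, so whether it is particular to these genes was not tested.

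**Figure D4:**
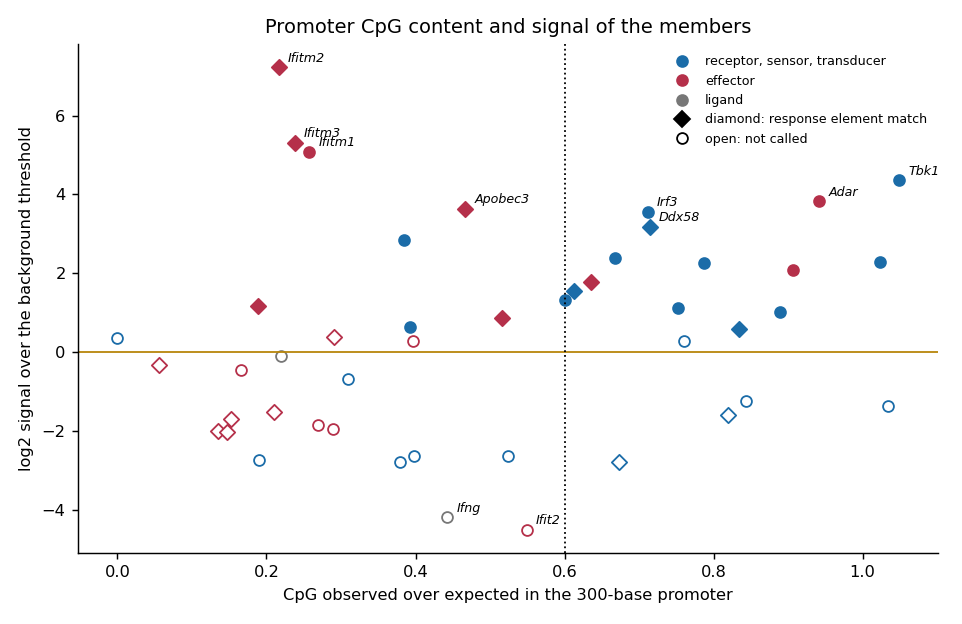
Each symbol is 1 gene with a promoter and a signal, with the observed over expected CpG ratio of its promoter on the horizontal axis (dotted line at 0.6) and its mean log2 signal over threshold on the vertical axis; colour marks the class, diamonds a response element match and open symbols uncalled genes. Effectors lie mostly to the left and upstream genes mostly to the right of the dotted line, and the called Ifitm genes lie to the left of it.

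Several members neighbour each other in the RefSeq gene table. On chromosome 7, Ifitm2, Ifitm1 and Ifitm3 follow one another with no coding gene between them, and all were called. On chromosome 16, Ifnar2, Ifnar1 and Ifngr2 lie together, with 1 coding gene between Ifnar2 and Ifnar1, and Ifngr2 was not called beside the other two. On chromosome 5, Oas2, Oas3, Oas1g and Oas1a lie in this order, with 4 coding genes between Oas3 and Oas1g. Of these, Oas1a was called, Oas2 and Oas3 were not, and Oas1g was not measured. The neighbouring genes Oasl2 and Oasl1 on chromosome 5, Gbp3 and Gbp2 on chromosome 3, and Ifit2, Ifit3 and Ifit1 on chromosome 19 were not called.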

How the data were processed

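The deposited values were signal intensities of 45101 probe sets on 3 arrays, made by the authors with GCOS 1.4, per the submitters' processing notes; which signal algorithm was run is not given in the sources used here. They were used without further normalization. Probe sets were named through GEO's platform annotation of 2016: 34945 have 1 gene symbol, 932 several and 9160 none, and the 64 control probe sets were left out of the counts of genes. From log2(signal) minus log2 of each array's threshold, limma 3.58.1 (R 4.3.3; lmFit with an intercept, eBayes) gave a one-sided p for every probe set, adjusted over all of them by the Benjamini-Hochberg method; the script was tested on simulated data. Array values are given for members called above background and for uncalled members over the threshold or within 1 log2 unit under it. For the other members, means, SDs or ranges are given. Array values of Ifngr2, Mx1, Laptm5 and the second probe sets of Zbp1 and Mb21d1 were added after they were seen. Of the other lists, called genes are named and uncalled ones by count with the first 4. The members and all lists were chosen with earlier results of these data known. The alternatives were other thresholds, another background, another choice of probe set, quantile normalization, a filter on signals, a variance trend and leaving out each array. All lists were read in the same fit, including markers of endoderm derivatives (1 of 5 called, Gata6, 57.5 ± 3.95) and of fibroblasts (1 of 6, Thy1, 105 ± 17.3).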

Additional observations from a re-analysis of the deposited data

How the results depend on the processing

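The count of 22 called members ranged from 17 to 29 over the alternatives, that of upstream genes from 9 to 16 and that of effectors from 7 to 13, other assignments to the classes included, all within 1.5 times the main count. Leaving out replicate 1, 2 or 3 gave 17, 20 and 19 called members, beside 48.1%, 48.5% and 48.6% of all named genes. The 99th percentile of the background families gave 17 members, beside 46.1% of all named genes. The Bacillus subtilis control probe sets as background, with thresholds of 21.3, 27.5 and 19.8, gave 29 members, beside 59.3% of all named genes. In the main setting 51.2% of all named genes were called, so the share of all genes moved in the same direction. Under these alternatives the direction turned for Irf3 alone among called genes, to a log2 of −0.32 at the probe set preferred by its suffix. Some uncalled genes near the threshold also changed sign. With the 99th percentile, Tmem173 moved to −0.13, Mb21d1 to −0.12, Tlr9 to −0.043, Oasl1 to −0.11 and Rsad2 to −0.022. With the Bacillus subtilis background, Ifnb1 moved to 0.87, Irf7 to 0.29, Dhx58 to 0.62, Tlr4 to 0.27, Ifit3 to 0.63 and Ifi35 to 0.51. Ifnb1 gave 0.23 at the 90th percentile and ranged from −0.29 to 0.19 when 1 array was left out, highest without replicate 1, and Oasl1 ranged from −0.068 (without replicate 2) to 0.59. With the 99th percentile, 5 calls were lost (Irf5, Irf9, Stat2, Bst2 and Samhd1), and the same 5 were lost without replicate 1. With the Bacillus subtilis background, 7 genes gained a call (Ifnb1, Tmem173, Mb21d1, Tlr9, Oas2, Oasl1 and Rsad2), so that these are near the limit of what the arrays separate from background. Oas2 and Rsad2 also gained one at the 90th percentile, and Oas2 with a variance trend (adjusted p 0.0481). Quantile normalization and olfactory receptors alone as background changed no member's call. Irf2 and Ticam1 have no value without the probe sets whose suffix marks shared sequence. No paired analysis was possible because there is a single group.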

Other observations

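Among the 29 uncalled genes of the further interferon-stimulated list, 15 had their highest signal on replicate 2 (51.7%), against 33.2% of all 8828 uncalled named genes; for the uncalled effectors it was 6 of 16 (37.5%). Among the 22 called members the highest signal was on replicate 1 for 12, on replicate 2 for 2 and on replicate 3 for 8, whereas among all 9253 called genes it was on replicate 3 for 5082. These counts were chosen after the values were seen, and no test was made.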
